A study of Mus musculus with 9 samples.

Results

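The genes described here make, break down and read out the cyclic nucleotides cAMP and cGMP: the adenylyl cyclases, the cyclic nucleotide phosphodiesterases, the subunits of the cAMP-dependent protein kinase PKA, the cGMP-dependent protein kinases PKG and the soluble guanylyl cyclases. They were taken by symbol, as every protein-coding gene named Adcy, Pde, Prkar1, Prkar2, Prkac, Prkg or Gucy1 with its family number and letter. The rule found 46 of the 50813 genes listed, and 23 of them held enough reads to be tested. These were 4 of 10 adenylyl cyclases, 11 of 24 phosphodiesterases, both PKA catalytic subunits, all 4 PKA regulatory subunits, both PKG genes and none of the 4 soluble guanylyl cyclase genes.

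RNA-seq libraries came from cultured LLC (Lewis lung carcinoma) cells, a mouse line that carries a luciferase reporter. The groups were WT cells and the CD47 KO clones E3 and E5, with 3 replicates each. The study's methods call the replicates independent and biological. The KO lines were made by electroporation of Cas9 with a guide RNA against Cd47, followed by clonal expansion. Each KO is therefore 1 clone, and the effect of the genotype and of the clone cannot be told apart. All 9 libraries came from cells grown in DMEM with fetal bovine serum and antibiotics, and the labels name no treatment of them.

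Adenylyl cyclases turn ATP into cAMP, most of them at the plasma membrane under the control of Gs and Gi proteins. cAMP binds the regulatory subunits of PKA and frees the catalytic subunits, which phosphorylate many proteins, among them the transcription factor CREB, while A-kinase anchoring proteins hold the kinase at particular sites. Guanylyl cyclases make cGMP, which is read by PKG, and phosphodiesterases hydrolyse both nucleotides with a preference that differs between families. CD47 is a receptor for thrombospondin-1, and the pair is known for limiting nitric oxide and cGMP signalling in vascular cells.

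Total counts ran from 44257404 to 55095219 per library. Cd47 itself was at 179 to 187 CPM (a gene's counts scaled to a common library total, after TMM normalization) in WT, 36.8 to 49.6 in KO E3 and 15.5 to 18.6 in KO E5, so its transcript was lower in every KO library. All 5 mesenchymal markers exceeded 1 CPM in every library. Of the 8 lung epithelial markers, Nkx2-1, Sftpc, Sftpb and Epcam had no count in any library, and the summed level, nearly all Krt8 and Krt18, was 451 to 459 CPM in WT, 127 to 199 in KO E3 and 896 to 957 in KO E5. The 5 fibroblast markers summed to 48.4 to 63.9, 48.1 to 81.6 and 17.7 to 21.0 CPM in the same order, the haematopoietic markers to 2.77 to 3.54 CPM and the endothelial markers to 0.0185 to 0.253 CPM over all libraries, and the part of these markers in the results below was not tested. Replicate 3 of KO E3 stood apart from the other libraries of its clone, since a chi-square test of its counts against its 2 sister libraries gave 189 and 229 per degree of freedom, and every other replicate pair gave 4.81 to 38.8. Results that rest on it are given with and without it.

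CREB binds the cAMP response element, TGACGTCA, and its half-site TGACG, so the 250 bases before each annotated transcription start were searched for both on both strands, with every full element also counted as a half-site. RefSeq's promoter table (build GRCm38.p6) held 52 such windows for 19 of the 23 tested members, and none for Adcy6, Pde3b, Pde7a and Prkg2. The full element lay in 1.92% of the members' windows and in 1.55% of all 32851 windows, and the half-site in 19.2% and 17.8%. Counted by gene, with any window of the gene, the half-site lay in 42.1% of the 19 members and in 19.8% of 27025 genes, where the members had 52 windows for 19 genes and all genes 32851 for 27025. The stretches of 30 bases that hold a match are shown for the tested members that passed the test in at least 1 comparison, placed on GRCm39 by an exact match, with the element or half-site in capitals. For Prkar1a only the full element is shown.
Prkar1a: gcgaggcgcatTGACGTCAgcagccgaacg
Prkar1b: tagagggcggagTGACGggcaggaggacga
Prkaca, distal: gtctgcaactcgCGTCActcatccaggagc
Prkaca, proximal: ccaatgggcggtgggctgcgggggCGTCAc
Prkacb: ggggcttgaccgCGTCActtccggcgcgcc
Adcy7: tgatcatagagcCGTCAggggggtggggct
Adcy9: cggacccggcggTGACGtgcgcgggccgcg
Pde4b: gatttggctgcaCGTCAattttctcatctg

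The Prkar1a element (chr11:109541715-109541744, plus strand) lies 49 bases upstream of a start inside the gene, in sequence that GENCODE vM39 annotates as exonic. The Prkar1b half-site (chr5:139135788-139135817, minus strand) is 49 bases upstream of the gene and outside any exon. The distal Prkaca half-site (chr8:84699475-84699504, plus strand) lies 120 bases upstream and outside exons, and the proximal one (chr8:84699577-84699606, plus strand) 6 bases upstream in annotated exon. The Prkacb half-site (chr3:146518786-146518815, minus strand) is 102 bases upstream, with 8 of its 30 bases exonic. The Adcy7 half-site (chr8:89009580-89009609, plus strand) is 28 bases upstream of an internal start, in an intron. The Adcy9 half-site (chr16:4238369-4238398, minus strand) lies 24 bases upstream in annotated exon, and that of Pde4b (chr4:102278706-102278735, plus strand) 34 bases upstream of an internal start, with 21 of 30 bases exonic. Exons of any gene on either strand were counted here, so an exonic stretch need not belong to the member named. By the deposited coordinates, the Adcy9 stretch and the proximal Prkaca stretch lie outside those genes. A match of letters shows neither binding nor a response to cAMP.

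Per kilobase of exon, the members were unequal in level. In WT cells the highest were Prkg2 at 49.0 CPM per kb, Prkar1a at 46.9 and Prkaca at 37.9, followed by Pde6d at 15.3, Prkacb just below it, Prkar2a at 14.4, Pde7a at 14.2 and Prkar2b at 12.3. Among the adenylyl cyclases, Adcy6 stood at 8.56, Adcy7 at 5.07, Adcy3 at 3.69 and Adcy9 at 0.327 CPM per kb. Exon lengths were summed from GENCODE vM39 and are approximate, since the coordinates of only 8 of the 46 members match that release exactly.

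**Figure D1:**
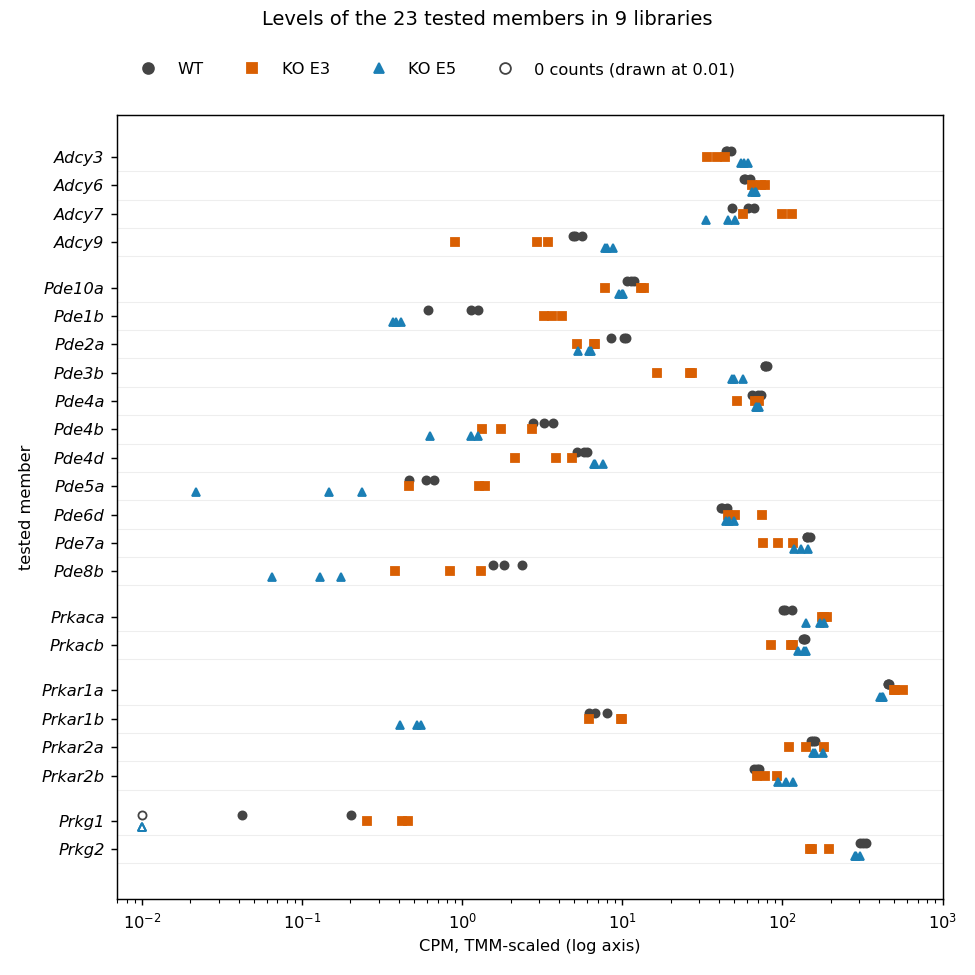
Level of each of the 23 tested members in CPM (log axis) in every library, with circles for WT, squares for KO E3 and triangles for KO E5; libraries with no count are open symbols drawn at 0.01. Prkar1a was above 400 CPM in all 9 libraries, while Prkg1 had no count in any KO E5 library.

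The comparison of each clone with WT asked which steps of cyclic nucleotide signalling differed in transcript level where Cd47 was disrupted, and the comparison of the clones asked where they differed from each other. In edgeR's quasi-likelihood test, with p-values adjusted by Benjamini-Hochberg across 14593 genes, 2 members rose and 7 fell in KO E3 against WT past an FDR of 0.05. Among all genes tested, 15.7% rose and 14.7% fell in that comparison. In KO E5 against WT 3 members rose and 7 fell, where 8.96% of all genes rose and 11.7% fell. KO E5 was higher than KO E3 for 7 members and lower for 8, against 14.7% and 17.2% of all genes.

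A gene past that FDR whose log2 fold change also exceeded 1 in size was called a DEG. There were 4 among the members in KO E3 (1 higher, 3 lower), beside 9.82% of all genes, and 5 in KO E5 (all lower), beside 8.21%. Between the clones there were 8 (2 higher and 6 lower in KO E5, Prkg1 included), beside 11% of all genes. The members' median log2 fold change was -0.11 in KO E3, -0.13 in KO E5 and -0.11 between the clones, beside medians of 0.01, 0.00 and -0.01 over all genes. The members had to pass a filter on low counts, so these counts describe the 23 that did. The comparisons with WT share the same WT libraries and are not independent of each other. Without replicate 3 of KO E3, 6 members rose and 8 fell in that clone, while calls over all genes went from 4445 of 14593 to 6423 of 14867. With no filter on low counts, of the 23 members, Adcy7, Pde4b, Pde4d and Prkg1 also passed in KO E3 (adjusted p = 0.0275, 0.0386, 0.0316 and 0.0253) and Prkg1 in KO E5. In that fit Prkacb no longer passed in KO E3 (adjusted p = 0.0506), Adcy3 in KO E5 (adjusted p = 0.111) and Prkar1a between the clones. By DESeq2, Adcy6, Adcy7, Pde4b, Pde4d and Prkg1 also passed in KO E3, Prkg1 in KO E5 and Prkacb between the clones. With only the 2 groups compared, Adcy9, Pde8b and Prkacb no longer passed in KO E3, Pde4b, Pde7a, Prkar1a and Prkar2b no longer passed between the clones, and Adcy6, Adcy7, Adcy9 and Pde4d passed in KO E5, where calls over all genes went from 3012 of 14593 to 6596 of 14098.

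**Figure D2:**
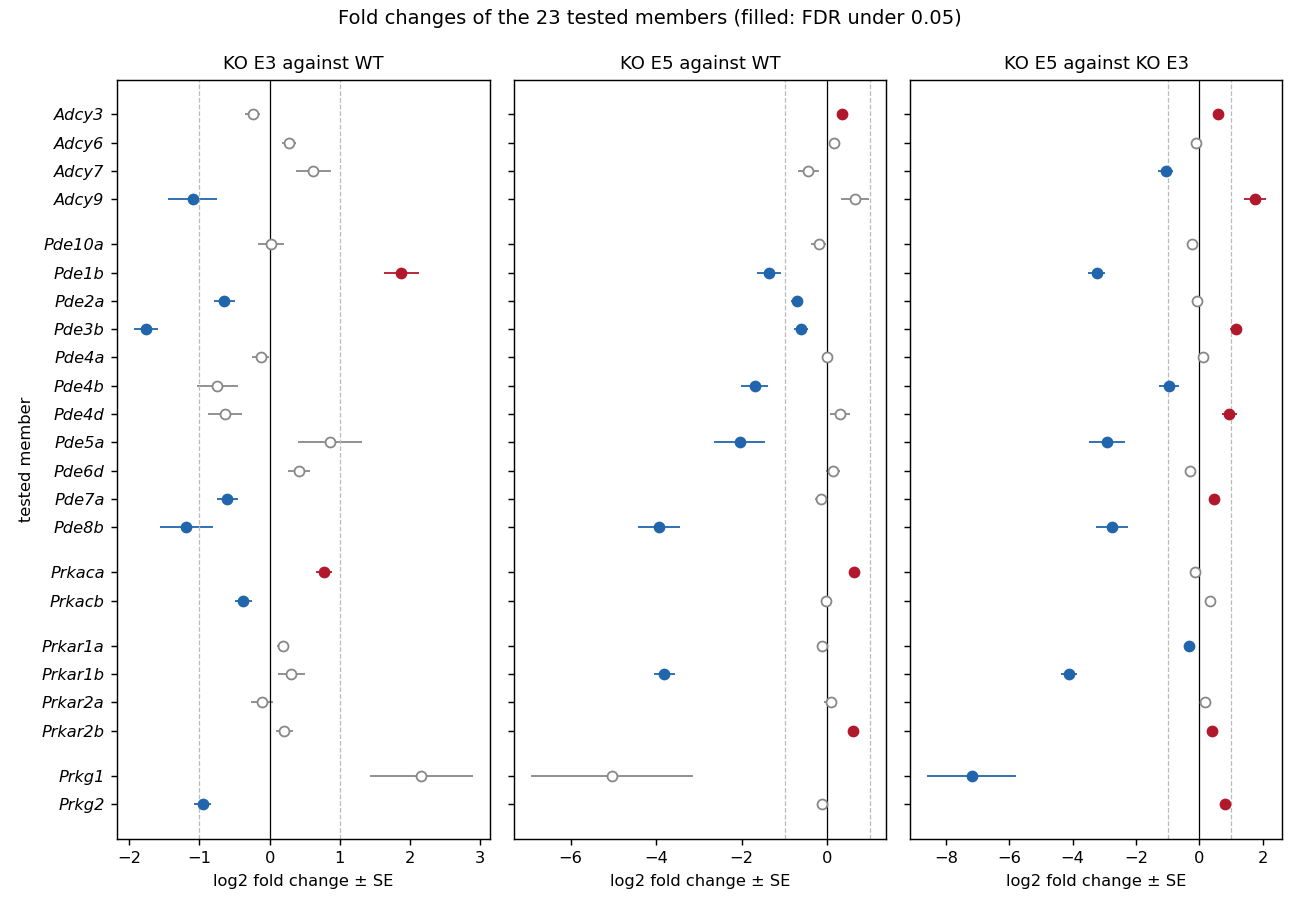
Log2 fold change ± SE of the 23 tested members in KO E3 against WT, KO E5 against WT and KO E5 against KO E3, with filled points for an FDR under 0.05 and dashed lines at 1 and -1. The panels have different axis ranges; the low outlying points in KO E5 are Prkg1, Pde8b and Prkar1b.

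Among the adenylyl cyclases, the source of cAMP, none changed beyond the DEG threshold in KO E5 and Adcy9 fell in KO E3. Adcy9 encodes a widely expressed isoform that is little affected by forskolin. It was at 5.05, 5.62 and 4.92 CPM in WT, at 2.94, 3.42 and 0.902 in KO E3, and at 7.76, 8.70 and 8.06 in KO E5. The 3 groups did not overlap, with KO E3 lowest and KO E5 highest, and the KO E3 mean was pulled down by replicate 3. The log2 fold change was -1.10 ± 0.34 (SE) in KO E3 (adjusted p = 0.0347), and -0.71 without replicate 3 (adjusted p = 0.00107). In the other fits that each left out 1 library, the call was kept without KO E3 replicate 1 or 2 and lost without any WT or any KO E5 library, at an adjusted p of at most 0.101. KO E5 did not pass the test against WT (0.65 ± 0.33, adjusted p = 0.191), except without KO E3 replicate 3 (0.66, adjusted p = 5.30e-04) and with only the 2 groups compared, but was higher than KO E3 by 1.75 ± 0.34 (adjusted p = 0.00337). A processed pseudogene, Gm6142, lies on the same strand within Adcy9, so its counts are uncertain to that extent.

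Adcy7, an isoform known from blood cells, also separated the clones. It was at 48.5, 61.2 and 66.2 CPM in WT, at 99.4, 114 and 56.9 in KO E3, and at 50.5, 45.9 and 33.1 in KO E5. Replicates 1 and 2 of KO E3 were above every other library, while replicate 3 lay within the WT range. Against WT, the log2 fold change was 0.62 ± 0.24 in KO E3 (adjusted p = 0.0792) and 0.87 without replicate 3 (adjusted p = 8.84e-04), and -0.44 ± 0.25 in KO E5 (adjusted p = 0.242). KO E5 was lower than KO E3 with a log2 fold change of -1.06 ± 0.25 (adjusted p = 0.00827). Brd7, which overlaps Adcy7 on the other strand by 1485 exonic bases, had mean levels of 103 CPM in WT, 98.9 in KO E3 and 93.7 in KO E5 and passed the test in none of the 3 comparisons. Without KO E3 replicate 3, KO E5 also passed against WT for Adcy7 (-0.44, adjusted p = 0.0296).

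The remaining tested cyclases moved less. Adcy3, an isoform best known from olfactory neurons and primary cilia, averaged 45.8 ± 1.5 (SD, n = 3) CPM in WT, 38.8 ± 5.0 in KO E3 and 57.9 ± 2.7 in KO E5. It rose in KO E5 (log2 fold change 0.34 ± 0.11, adjusted p = 0.0457), a call kept in 2 of 9 fits that each left out 1 library, those without KO E3 replicate 2 or 3, with an adjusted p of up to 0.173 in the others. Adcy3 was higher in KO E5 than in KO E3 by 0.58 ± 0.11 (adjusted p = 0.00236), and its KO E3 value against WT, -0.24 ± 0.11 (adjusted p = 0.117), passed without KO E3 replicate 2 (-0.33, adjusted p = 0.0363). Cenpo, which overlaps Adcy3 by 2029 exonic bases on the other strand, averaged 20.95 CPM in WT, 20.61 in KO E3 and 23.2 in KO E5 and passed in no comparison. Adcy6, which Gi proteins and calcium inhibit, averaged 59.6 ± 3.0, 72.0 ± 7.2 and 66.7 ± 2.2 CPM and did not pass the test in any comparison (adjusted p = 0.0587 in KO E3), but passed in KO E3 when at least 10 counts were required in every library (adjusted p = 0.0471). Without replicate 3 of KO E3 it passed in KO E3 (0.35, adjusted p = 0.00135), in KO E5 (0.17, adjusted p = 0.0419) and between the clones (-0.18, adjusted p = 0.0482). The other 6 adenylyl cyclases, Adcy1, Adcy2, Adcy4, Adcy5, Adcy8 and Adcy10, had 0 to 7 counts in any library and were not tested.

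Summed per kilobase, the adenylyl cyclases reached 17.4 to 18.1 CPM per kb in WT, 16.9 to 24.2 in KO E3 and 17.9 to 19.1 in KO E5. Adcy6 made up 46.3% to 52.0% of the WT sum. Adcy7 gave 24.1% to 31.7% in WT, 29.1% to 40.9% in KO E3 and 16.0% to 23.5% in KO E5, so that its KO E5 range lay below both other groups. The share of Adcy3 ran the other way, with 13.6% to 16.0% in KO E3, 20.2% to 21.9% in WT and 24.0% to 26.0% in KO E5.

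Of the 11 phosphodiesterases tested, 1 rose and 4 fell in KO E3, beside 15.7% and 14.7% of all genes. In KO E5 none rose and 6 fell, beside 8.96% and 11.7%, and between the clones 3 were higher and 4 lower in KO E5, beside 14.7% and 17.2%. Their median log2 fold change was -0.60 in KO E3 and -0.61 in KO E5. Pde2a, Pde3b and Pde8b fell in both clones, Pde7a fell in KO E3, Pde4b and Pde5a fell in KO E5, and Pde1b rose in KO E3 and fell in KO E5.

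Pde3b encodes a cAMP-hydrolysing enzyme that cGMP inhibits, known for its part in the action of insulin on fat cells. It was at 80.4, 77.7 and 78.1 CPM in WT, at 26.4, 27.2 and 16.4 in KO E3, and at 49.6, 48.6 and 56.6 in KO E5. The 3 groups did not overlap, and every KO library was below every WT library. It fell in KO E3 with a log2 fold change of -1.75 ± 0.17 (adjusted p = 6.78e-05) and of -1.56 without replicate 3. In KO E5 it fell with a log2 fold change of -0.61 ± 0.17 (adjusted p = 0.0264), a call lost without any 1 WT library or without KO E5 replicate 1 or 2 (adjusted p of at most 0.105). Without KO E3 replicate 3 this call was kept (-0.60, adjusted p = 2.20e-05). KO E5 stood above KO E3 by 1.14 ± 0.17 (adjusted p = 6.44e-04).

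Pde1b encodes a phosphodiesterase that calcium and calmodulin switch on and that hydrolyses both cAMP and cGMP. It was low, at 1.26, 0.610 and 1.14 CPM in WT, at 4.20, 3.25 and 3.63 in KO E3, and at 0.388, 0.412 and 0.370 in KO E5, which rests on 18 to 20 counts per KO E5 library. The clones lay on opposite sides of WT and no group overlapped another. It rose in KO E3 by 1.88 ± 0.24 (adjusted p = 3.71e-04), fell in KO E5 with a log2 fold change of -1.36 ± 0.29 (adjusted p = 0.00799), and differed between the clones with a log2 fold change of -3.24 ± 0.27 (adjusted p = 1.39e-05). All of these calls held in each of 9 fits that left out 1 library. Ppp1r1a, which overlaps Pde1b by 2136 exonic bases on the other strand, had 0 counts in all 9 libraries.

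Pde8b, a cAMP-specific phosphodiesterase with high affinity, was at 2.34, 1.83 and 1.56 CPM in WT, at 1.30, 0.380 and 0.836 in KO E3, and at 0.0646, 0.174 and 0.129 in KO E5. The KO E5 values stand for 3, 8 and 7 counts. Every KO library was below every WT library, and every KO E5 library below every KO E3 library. The log2 fold change was -3.93 ± 0.48 in KO E5 (adjusted p = 2.60e-04), and KO E5 was below KO E3 with a log2 fold change of -2.75 ± 0.51 (adjusted p = 0.00247). The fall in KO E3, -1.18 ± 0.37 (adjusted p = 0.0353), was lost in 5 of 9 fits, those without 1 of the WT libraries, KO E3 replicate 2 or KO E5 replicate 3, with an adjusted p of at most 0.123.

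Pde4b and Pde4d belong to the cAMP-specific family that rolipram inhibits, and Pde4b is itself known as a gene that cAMP induces. Pde4b was at 3.69, 2.78 and 3.25 CPM in WT, at 2.72, 1.73 and 1.32 in KO E3, and at 1.25, 1.13 and 0.629 in KO E5. The groups were stepped without overlap, WT highest and KO E5 lowest. It fell in KO E5 with a log2 fold change of -1.70 ± 0.31 (adjusted p = 0.00322), and KO E3 at -0.75 ± 0.29 did not pass (adjusted p = 0.0777), while it passed without KO E3 replicate 1 (adjusted p = 0.0234). The difference between the clones, -0.95 ± 0.31 (adjusted p = 0.0411), was lost in 6 of 9 fits, those without 1 of the WT libraries, KO E3 replicate 1 or KO E5 replicate 2 or 3 (log2 fold changes of -0.62 to -1.16 over all 9 fits, adjusted p of at most 0.152). Pde4d averaged 5.66 ± 0.38 CPM in WT, 3.63 ± 1.39 in KO E3 and 6.97 ± 0.48 in KO E5, and was higher in KO E5 than in KO E3 by 0.94 ± 0.24 (adjusted p = 0.0130), and by 0.68 without KO E3 replicate 3 (adjusted p = 0.00163). Its KO E3 value against WT was -0.64 ± 0.24 (adjusted p = 0.0676), which passed without KO E3 replicate 1 or 3 (lowest adjusted p = 0.0185). Pde4a, the most abundant of these 3 per kilobase, averaged 69.4 ± 4.4, 63.6 ± 10.1 and 69.5 ± 1.6 CPM and passed in no comparison.

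Pde5a encodes the cGMP-specific phosphodiesterase that sildenafil inhibits. It was at 0.661, 0.463 and 0.591 CPM in WT, at 1.38, 1.27 and 0.462 in KO E3, and at 0.237, 0.0217 and 0.148 in KO E5, where it had 11, 1 and 8 counts. Every KO E5 library was below every other library, and replicate 3 of KO E3 lay just below the WT range while the other KO E3 replicates lay above it. It fell in KO E5 with a log2 fold change of -2.05 ± 0.59 (adjusted p = 0.0339), a call lost in 5 of 9 fits, those without 1 of the WT libraries or KO E5 replicate 2 or 3, with an adjusted p of at most 0.104. Without KO E3 replicate 3 this call was kept (-2.04, adjusted p = 0.00313). KO E5 was below KO E3 with a log2 fold change of -2.91 ± 0.56 (adjusted p = 0.00318) and of -3.25 without KO E3 replicate 3. KO E3 against WT was 0.86 ± 0.46 (adjusted p = 0.189), and 1.20 without replicate 3 (adjusted p = 0.0157).

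Pde2a, which cGMP stimulates and which hydrolyses both nucleotides, averaged 9.73 ± 1.14 CPM in WT, 6.22 ± 0.86 in KO E3 and 5.96 ± 0.57 in KO E5. It fell in KO E3 with a log2 fold change of -0.64 ± 0.15 (adjusted p = 0.00807) and in KO E5 with a log2 fold change of -0.71 ± 0.15 (adjusted p = 0.00699), and both calls held in each of 9 fits that left out 1 library. Between the clones the difference was -0.06 ± 0.15 (adjusted p = 0.776). A second protein-coding gene model, Gm45837, shares exons with Pde2a on the same strand, so its counts are uncertain to that extent.

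Pde7a, a cAMP-specific enzyme, was at 142 to 148 CPM in WT, 75.6 to 116 in KO E3 and 118 to 145 in KO E5 (the values of the 3 libraries each). It fell in KO E3 with a log2 fold change of -0.60 ± 0.15 (adjusted p = 0.0109) and of -0.46 without replicate 3 (adjusted p = 0.00240). The difference between the clones, 0.46 ± 0.15 (adjusted p = 0.0340), was lost without any 1 WT library, KO E3 replicate 2 or KO E5 replicate 2 or 3 (adjusted p of at most 0.125). Mtfr1, which overlaps it by 219 exonic bases on the other strand, also fell in KO E3 with a log2 fold change of -0.80 (adjusted p = 7.61e-05), and the part of shared reads in this was not tested. Pde6d encodes a chaperone that carries prenylated proteins, and ran from 41.2 to 44.9 CPM in WT, 45.8 to 75.0 in KO E3 and 44.6 to 49.9 in KO E5. Pde10a, which hydrolyses both nucleotides, averaged 11.3 ± 0.6, 11.4 ± 3.2 and 9.84 ± 0.26 CPM. Neither passed the test in any comparison with all 9 libraries. Without 1 library each passed once: Pde6d in KO E3 without KO E3 replicate 2 (adjusted p = 0.0214), and Pde10a between the clones without KO E3 replicate 3 (-0.43, adjusted p = 0.00228).

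The sum over all 24 phosphodiesterase genes was 46.3 to 47.8 CPM per kb in WT, 38.7 to 43.9 in KO E3 and 43.6 to 44.9 in KO E5. Pde6d, Pde7a and Pde4a led it in WT, with 31.5% to 33.9%, 29.7% to 30.6% and 16.1% to 18.0%. Pde6d held 41.64% to 60.95% in KO E3 and 35.48% to 40.49% in KO E5. Since it encodes a chaperone, the sum does not describe the hydrolysing enzymes alone. Pde3b supplied 12.7% to 13.3% in WT, 2.91% to 5.49% in KO E3 and 8.68% to 9.84% in KO E5. The remaining 13 phosphodiesterases were not tested. Pde11a, Pde1a, Pde1c, Pde3a and Pde7b had 0 counts in all libraries, and Pde4c, Pde6a, Pde6b, Pde6c, Pde6g, Pde6h, Pde8a and Pde9a had at most 15 in any library.

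**Figure D3:**
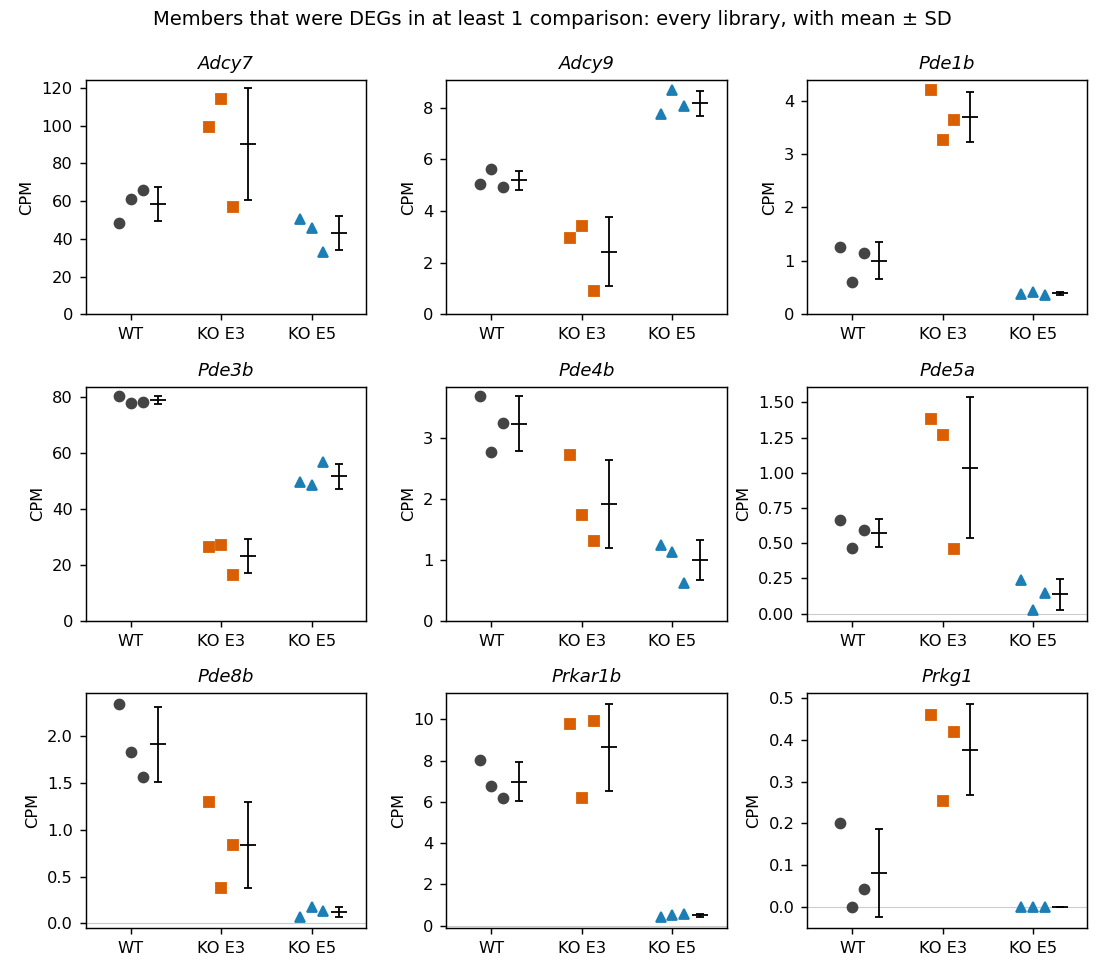
CPM in every library for the 9 members that were DEGs in at least 1 comparison, with the group mean ± SD (n = 3) as a bar beside the points. The KO E5 mean was lowest in all of them except Adcy9 and Pde3b, and replicate 3 of KO E3 lay apart from its group for Adcy7, Adcy9 and Pde5a.

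For PKA, the catalytic subunit Prkaca rose in both clones, while its partner Prkacb fell in KO E3. Prkaca, the principal catalytic subunit in most tissues, was at 101, 104 and 114 CPM in WT, at 181, 178 and 189 in KO E3, and at 183, 172 and 141 in KO E5, so every KO library exceeded every WT library. The rise was 0.78 ± 0.11 in KO E3 (adjusted p = 6.05e-04) and 0.63 ± 0.11 in KO E5 (adjusted p = 0.00261), and both calls held in each of 9 fits that left out 1 library. KO E5 against KO E3 was -0.15 ± 0.11, which did not pass (adjusted p = 0.344). A protein-coding gene, Smim46, overlaps Prkaca by 62 exonic bases on the same strand, so the Prkaca counts are uncertain to that extent. Prkacb averaged 136 ± 2 CPM in WT, 105 ± 18 in KO E3 and 133 ± 8 in KO E5. Its fall in KO E3 was -0.37 ± 0.12 (adjusted p = 0.0423), and -0.24 without replicate 3 (adjusted p = 0.0103), and it was lost without any 1 WT or KO E5 library (adjusted p of at most 0.116) and with no filter on low counts. Prkacb in KO E5 against KO E3 was 0.35 ± 0.12 (adjusted p = 0.0533), which passed without any 1 KO E3 library (lowest adjusted p = 0.0158).

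Of the regulatory subunits, which hold the catalytic subunits inactive until cAMP binds, Prkar1b differed most. Prkar1b encodes a type I subunit that is most abundant in brain. It was at 8.01, 6.75 and 6.18 CPM in WT, at 9.78, 6.21 and 9.94 in KO E3, and at 0.409, 0.521 and 0.555 in KO E5, where it had 19, 24 and 30 counts. All KO E5 libraries were far below the rest, while KO E3 overlapped WT. The log2 fold change in KO E5 was -3.81 ± 0.24 (adjusted p = 2.51e-06, 14.0-fold lower), and -4.11 ± 0.24 against KO E3 (adjusted p = 9.11e-07, 17.3-fold lower). KO E3 against WT was 0.31 ± 0.19 (adjusted p = 0.254), which passed only without KO E3 replicate 2 (adjusted p = 0.0328). Dnaaf5, which overlaps Prkar1b by 301 exonic bases on the other strand, averaged 52.8 ± 2.7 CPM in WT, 35.3 ± 5.3 in KO E3 and 53.7 ± 3.0 in KO E5. It fell in KO E3 with a log2 fold change of -0.58 (adjusted p = 0.00420) and was higher in KO E5 than in KO E3 by 0.61 (adjusted p = 0.00318). Prkar1b was lower in KO E5 than in KO E3, and the part of shared reads in the values of either gene was not tested. A non-coding RNA gene, Gm15672, overlaps Prkar1b by 341 exonic bases on the same strand, so the Prkar1b counts are uncertain to that extent.

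Prkar2b, a type II subunit found in brain and fat, rose in KO E5. It averaged 69.1 ± 2.1 CPM in WT, 79.9 ± 11.8 in KO E3 and 105 ± 11 in KO E5, a log2 fold change of 0.61 ± 0.12 in KO E5 (adjusted p = 0.00612). The difference between the clones, 0.40 ± 0.12 (adjusted p = 0.0320), was lost without any 1 WT library, KO E3 replicate 2 or KO E5 replicate 1 or 2 (adjusted p of at most 0.127). KO E3 passed against WT only without its replicate 3 (0.30, adjusted p = 0.0244). Prkar1a, the ubiquitous type I subunit whose loss causes Carney complex in humans, averaged 457 ± 2 CPM in WT, 523 ± 40 in KO E3 and 417 ± 9 in KO E5. It passed the test only between the clones (-0.33 ± 0.09, adjusted p = 0.0189), a call lost without KO E5 replicate 2 or 3 (adjusted p of at most 0.0727) and with no filter on low counts. Prkar2a, the type II subunit of most tissues, averaged 155 ± 4, 144 ± 37 and 164 ± 13 CPM and passed in no comparison, except between the clones without KO E3 replicate 2 (adjusted p = 0.0388).

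Set per kilobase, the catalytic subunits summed to 51.3 to 55.5 CPM per kb in WT, 75.8 to 77.3 in KO E3 and 65.6 to 78.8 in KO E5. The regulatory subunits summed to 73.6 to 74.9 in WT, 81.8 to 82.9 in KO E3 and 72.9 to 81.1 in KO E5. The ratio of catalytic to regulatory mRNA was 0.697, 0.698 and 0.740 in WT, 0.946, 0.914 and 0.936 in KO E3, and 0.973, 0.997 and 0.900 in KO E5, so it was higher in every KO library than in any WT library. This ratio concerns mRNA per kilobase with approximate lengths and carries no test. Prkaca made up 70.3% to 73.3% of the catalytic sum in WT, 83.3% to 87.8% in KO E3 and 76.5% to 82.5% in KO E5. Prkar2b held 16.2% to 16.9% of the regulatory sum in WT and 22.9% to 25.5% in KO E5, with Prkar1b at 0.972% to 1.28% and 0.0595% to 0.0897%.

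**Figure D4:**
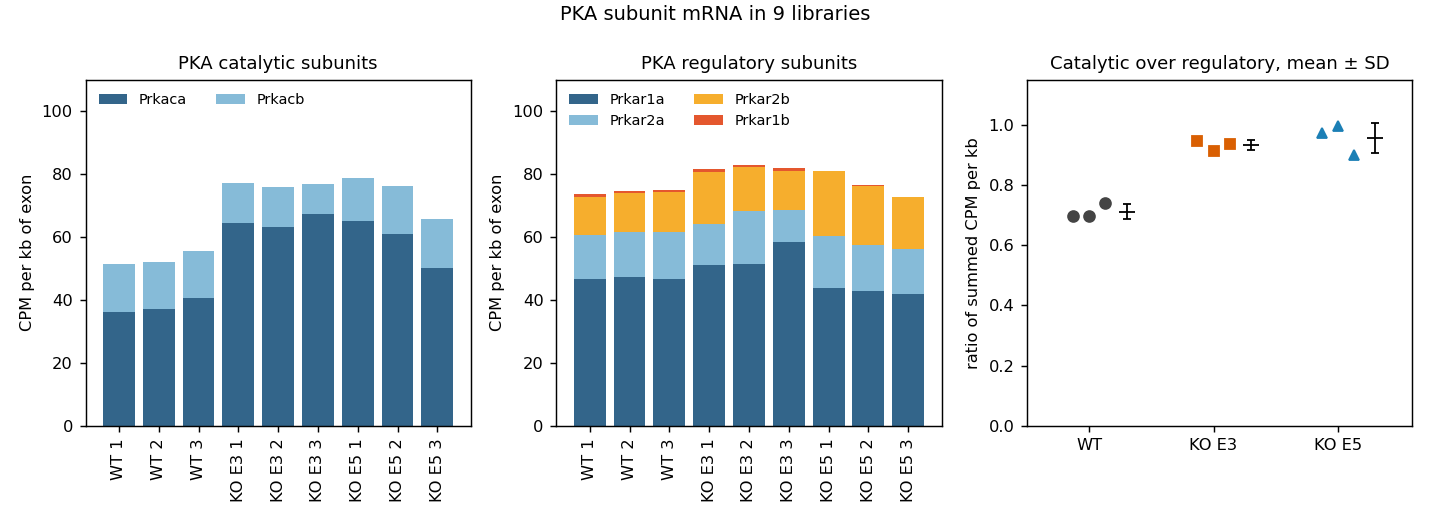
Stacked bars give the CPM per kb of exon of the PKA catalytic and regulatory subunits in each of the 9 libraries, and points give the ratio of their sums with the group mean ± SD (n = 3). The ratio was 0.697 to 0.740 in WT and 0.900 to 0.997 over the KO libraries.

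On the cGMP side, Prkg2 fell in KO E3 and Prkg1 had very low counts. Prkg2 encodes the membrane-anchored type II kinase known from intestine, kidney and growth plate. It averaged 320 ± 14 CPM in WT, 165 ± 26 in KO E3 and 293 ± 12 in KO E5. The log2 fold change in KO E3 was -0.95 ± 0.12 (adjusted p = 2.58e-04), and -1.09 without replicate 3 (adjusted p = 5.43e-07), which is past the DEG threshold. KO E5 was 0.82 ± 0.12 above KO E3 (adjusted p = 4.74e-04) and -0.13 ± 0.12 against WT (adjusted p = 0.496).

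Prkg1 encodes the type I kinase of smooth muscle and platelets. It was at 0.200, 0 and 0.0422 CPM in WT (10, 0 and 2 counts), at 0.460, 0.254 and 0.418 in KO E3 (23, 12 and 19 counts), and had no count in any KO E5 library. It passed the filter only through KO E3. KO E5 was at least 6.11-fold lower than KO E3, taking 3 counts per library as the floor (0.0617 CPM). Since the group where it was high let it into the test, this difference is given as a description. Its call between the clones, which is among the counts above, is not read as support. The same holds for its calls against WT in fits that used the filter, those by DESeq2 included. Against WT, the adjusted p was 0.0558 in KO E3 and 0.0998 in KO E5. KO E3 passed without WT replicate 1 (adjusted p = 0.0136) and KO E5 without WT replicate 2 (adjusted p = 0.0471), and both passed with no filter on low counts (adjusted p = 0.0253 and 0.0383). Over 99.8% of PKG mRNA per kilobase was Prkg2 in every library. The soluble guanylyl cyclase genes Gucy1a1, Gucy1a2, Gucy1b1 and Gucy1b2, which make the receptor for nitric oxide, had at most 2 counts in any library, so no difference between the lines was detectable at this depth.

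In bulk RNA a lower level in every cell and fewer cells that express a gene cannot be told apart, and this holds for every member above. Counts were deposited without a stated strand setting, so reads from a member and an overlapping gene on the other strand may not have been separated.

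The genes around these enzymes were followed through 7 lists written from general knowledge, without the members, and their counts stand beside 15.7% of all genes higher and 14.7% lower in KO E3, and 8.96% and 11.7% in KO E5. The list of Gs and Gi protein subunits also holds the related Gnao1, Gnat2 and Gnaz. Of these subunits, 3 of 7 tested rose in KO E3 (Gnas, Gnai2 and Gnao1) and 2 in KO E5 (Gnao1 and Gnaz), and none fell, with medians of 0.38 and 0.06. Gnas, Gnai2 and Gnai3 did not pass in KO E5. Gnao1, the Go alpha subunit, averaged 8.59 ± 0.45 CPM in WT, 38.6 ± 6.0 in KO E3 and 23.6 ± 1.5 in KO E5, a rise of 2.17 ± 0.13 (adjusted p = 3.69e-06) and 1.46 ± 0.13 (adjusted p = 2.36e-05). Of 32 receptors that couple to Gs, 6 were tested, and 1 rose in KO E3 while 2 rose and 1 fell in KO E5, with medians of -0.19 and 0.20. Adora2b, an adenosine receptor, averaged 13.5 ± 0.1 CPM in WT and 6.47 ± 1.57 in KO E5 and fell there with a log2 fold change of -1.06 ± 0.17 (adjusted p = 0.00148).

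Of 12 tested A-kinase anchoring proteins, which tether PKA, 1 rose and 3 fell in KO E3 and 2 rose and 1 fell in KO E5, with medians of -0.20 and 0.02. Akap17b rose in KO E3 (1.13 ± 0.18, adjusted p = 0.00128) and in KO E5 (0.72 ± 0.19, adjusted p = 0.0200), Akap6 rose in KO E5 (1.10 ± 0.23, adjusted p = 0.00770), and Akap12 fell in KO E5 (-1.11 ± 0.31, adjusted p = 0.0273). Among 7 tested PKA inhibitors, Epac proteins and other cAMP-binding proteins, 3 rose and 2 fell in KO E3 and 1 rose and 1 fell in KO E5, with medians of -0.15 and 0.19. Hcn2, a channel that cyclic nucleotides gate, rose in KO E3 by 1.01 ± 0.15 (adjusted p = 6.86e-04) and in KO E5 by 0.49 ± 0.15 (adjusted p = 0.0416).

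All 11 genes of the list of CREB family members and coactivators, which also holds the kinases Sik1, Sik2 and Sik3, were tested. None rose, while 3 fell in KO E3 (Atf1, Crtc3 and Sik1) and 1 fell in KO E5, which was Sik1 (-0.48 ± 0.14, adjusted p = 0.0325). None of these was a DEG, and the medians were -0.24 and 0.00. Of 12 tested CREB target genes, 1 rose and 4 fell in KO E3 and 1 rose and 5 fell in KO E5, with medians of -0.19 and -0.39. Sik1 is in this list too and is counted again among the falls in both clones. Areg, the EGF receptor ligand amphiregulin, averaged 51.9 ± 4.3 CPM in WT, 11.9 ± 1.8 in KO E3 and 20.3 ± 0.6 in KO E5, a log2 fold change of -2.12 ± 0.12 (adjusted p = 2.95e-06) and -1.36 ± 0.12 (adjusted p = 2.52e-05). Of the 5 tested sources of cGMP and partners of PKG, 2 rose in KO E3 and 3 fell in KO E5, with medians of 1.12 and -0.76. Most of these genes were low. Npr2 averaged 0.389 CPM in WT, 0.849 in KO E3 and 0 in KO E5. Nos1 averaged 0.290, 0.216 and 0.0719 CPM in the same order, and Nos3 0.247, 0.544 and 0.320. The KO E3 median is the value of Nos3, and the falls in KO E5 include Npr2 and Nos1. Npr1, the membrane guanylyl cyclase that binds atrial natriuretic peptide, averaged 1.54 ± 0.19 CPM in WT, 3.47 ± 0.53 in KO E3 and 0.909 ± 0.103 in KO E5, and rose in KO E3 by 1.17 ± 0.18 (adjusted p = 0.00104) and fell in KO E5 (-0.76 ± 0.20, adjusted p = 0.0218).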

How the data were processed

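Polyadenylated RNA of 9 LLC libraries was sequenced in paired-end mode from a directional kit. The reads were quality-checked (FastQC), trimmed (Trimmomatic) and aligned (STAR, GRCm39) by the authors, who deposited raw, unpooled counts for each gene. Which counter, strand setting and annotation release they used is not given in the sources used here. Groups and replicate numbers came from the sample titles. From the deposited counts, edgeR 4.0.16 (R 4.3.3) was run with TMM scaling, filterByExpr (minimum count 10, total 15; 14593 of 50813 genes) and the quasi-likelihood test, with all 9 libraries in 1 fit. A call needed an FDR under 0.05, and a DEG also a log2 fold change above 1 in size (the thresholds of the study's methods). The SE is the fold change over the square root of F.

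The members, the lists around them and the rule for named genes were chosen with earlier results of these data known. DEG members are given for every library, other tested members by group means, and from each list at most 4 DEGs against WT with an average log2 CPM above 0. Tested on counts simulated for 14593 genes, edgeR recovered 88 of 100 genes changed 2-fold and 99 of 100 changed 4-fold in KO E3 against WT, with 17 false calls, and 96, 98 and 7 in KO E5 against WT. The changed genes all averaged above 1 CPM, and each gene had the same simulated spread in every line. These rates therefore do not cover members below that level or the outlying replicate 3 of KO E3. Counts of 3 or fewer in every library of a group were treated as the detection floor, which covers counting error only. DESeq2 1.42.0, its size factors, other filters, only the 2 groups compared, a replicate block and each library left out were the alternatives. Promoters came from RefSeq's table, and exon lengths from GENCODE vM39.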

Additional observations from a re-analysis of the deposited data

Results flagged for a closer look

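The 8 members whose transcript differed between the KO clones past the DEG threshold are listed because both clones carry the same disrupted gene, and each value is the log2 fold change of KO E5 minus KO E3 by edgeR's quasi-likelihood test in the fit of all 9 libraries. KO E5 was lower for Adcy7 (-1.06), Pde1b (-3.24), Pde5a (-2.91), Pde8b (-2.75) and Prkar1b (-4.11). KO E5 was higher for Adcy9 (1.75) and Pde3b (1.14). For Prkg1 the fitted value of -7.20 depends on the prior count, since KO E5 had no count, and the bound is at least 6.11-fold lower. Prkg1 passed the filter on low counts only through KO E3, so its call between the clones is a description. The clones lay on opposite sides of WT with both tests passed for Pde1b. The cause of these differences was not tested, and clonal variation and the genotype cannot be told apart with 1 clone per line.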

How the results depend on the processing

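With 3 libraries per line and 1 clone per KO, p-values measure the spread between replicates of a line. The members' counts moved by over 1.5 times as follows, and the cause was not tested. In KO E3 against WT, the 2 members higher became 5 with the DESeq2 test and 5 with no filter on low counts, where 39 members entered the test. The 7 lower became 4 and the 4 DEGs became 2 with only the 2 groups compared. In KO E5 against WT, the 3 higher became 6 with only the 2 groups compared, where calls over all genes rose from 3012 of 14593 to 6596 of 14098, and the 5 DEGs became 3 with at least 10 counts in every library. Between the clones, that filter gave 5 lower in place of 8 and 5 DEGs in place of 8, by removing low genes. Leaving out 1 library in turn gave, in KO E3, 2 to 6 higher (6 without KO E3 replicate 3, 4 without its replicate 2), 4 to 9 lower (4 without any 1 WT library or KO E5 replicate 3) and 2 to 5 DEGs (2 without WT replicate 2 or 3 or KO E5 replicate 3). It gave 2 to 5 higher (5 without KO E3 replicate 3), 5 to 8 lower and 4 to 5 DEGs in KO E5, and 5 to 8 higher, 6 to 10 lower and 7 to 9 DEGs between the clones. With the replicate number as a block, 2 members were higher and 7 lower in KO E3, 2 higher and 6 lower in KO E5, and 6 higher and 7 lower between the clones, since the calls of Adcy3 and Pde3b in KO E5, Prkacb in KO E3 and Pde7a and Prkar1a between the clones were lost and that of Pde4b in KO E3 was gained. The numbers did not pair the libraries, since deviations of same-numbered libraries correlated at -0.25 to 0.10. Of 1025 values under 15 alternatives, 903 kept their direction and their side of it, 70 lost the call, 39 gained one, 13 changed sign without a call in either fit and 0 changed sign with one.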
